A study of Homo sapiens with 45 samples.

Results

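The 3 libraries of day 8 were compared with the 3 libraries of day 7 in a differentiation of human embryonic stem cells towards spinal motor neurons. These 6 libraries, of 45 in all, were chosen by their day labels alone, and 19436 genes were tested. H9, an established line, supplied all groups. Its cells were first grown as neuromesodermal progenitors on fibronectin in N2B27 medium with CHIR99021 (which activates Wnt signalling), bFGF, SB431542 (an inhibitor of Activin and Nodal receptors), DMH1 (an inhibitor of BMP receptors) and a ROCK inhibitor. From day 0 on they were kept in 100 nM retinoic acid (RA) and 500 nM SAG, which activates the Hedgehog pathway through Smoothened, with the ROCK inhibitor for the first days only. Days 6, 7, 8 and 9 therefore shared line and agents and differed by day. The labels say that medium was renewed on alternate days but not on which, so neighbouring days may differ in the time since feeding. The labels name the replicates only as bioreps, so the spread between the libraries of a day may be technical. The p-values rest on that spread, pooled over all 45 libraries.

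In the ventral spinal cord, progenitors that carry OLIG2 and NKX6-1 leave the cell cycle under proneural factors such as NEUROG2, while Notch signalling through HES5 holds their neighbours in the progenitor state. The newborn motor neurons switch on the homeodomain factors MNX1, ISL1, ISL2, LHX3 and LHX4. These factors activate the genes that make, load, recapture and break down acetylcholine, the transmitter of motor neurons.

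The libraries of days 7 and 8 held 27936485 to 35320429 counts. Levels are given as library-scaled counts (CPM) for replicates 1, 2 and 3 in that order or as mean ± SD over n = 3 libraries. A change is a log2 difference ± SE, and calls are adjusted p-values under 0.05 in edgeR's quasi-likelihood test. In the 1000 most variable genes of days 6 to 9, the first principal component (72.4% of the variance) put the days in order. On the second (11.9%), day 8 lay at one end, at -7.36 to -6.14, with day 7 at -2.47 to -0.84 and day 9 at 3.94 to 6.62. The mitochondrial genome gave 2.35% to 2.93% of day 7 counts and 1.80% to 2.35% of day 8 counts. Their part in the other differences was not tested.

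Between day 7 and day 8, 1009 genes rose (5.19% of those tested) and 891 fell (4.58%), together 9.78%. Most of these changes were small. The median size over called genes was 0.32 on the log2 scale, a 1.25-fold change, and 79.2% were under 1.5-fold. At least 2-fold changes were called for 122 genes that rose (0.628%) and 25 that fell (0.129%). In the neighbouring steps, 6.33% of genes were called from day 6 to 7 and 21.5% from day 8 to 9. The counts depended on every library. Without day 7 replicate 1, 2 or 3 there were 610, 568 and 672 genes that rose and 511, 564 and 599 that fell. Without day 8 replicate 1, 2 or 3 there were 547, 720 and 614 that rose and 472, 581 and 583 that fell. Without replicate 1 of all days, 117 rose and 94 fell. In all of these fits, every gene that was also called with all libraries had the same direction.

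The 12 genes with the largest called increase ranged from neuronal receptors and peptides to a coronin and a Nodal inhibitor. TACR1 (chr2:75046463-75199700, minus strand, GRCh38), the receptor of the neuropeptide substance P, stood at 2.30, 3.14 and 2.81 CPM on day 7 and 10.3, 10.8 and 10.7 CPM on day 8. It rose by 1.94 ± 0.25 on the log2 scale (adjusted p = 3.8e-06), and the days were far apart. ECEL1 (chr2:232479827-232487828), an endopeptidase-like protein needed for motor nerves to branch in muscle, went from 11.1 ± 1.09 to 34.0 ± 1.65 CPM, a change of 1.62 ± 0.17 (adjusted p = 1.6e-07). SST, the peptide somatostatin, rose from 3.32 ± 0.40 to 10.2 ± 1.09 CPM. EEF1A2, the translation elongation factor form of neurons and muscle, rose from 17.0 ± 1.82 to 42.4 ± 1.48 CPM, with a change of 1.32 ± 0.08 (adjusted p = 3.2e-14). GRIK1, a kainate receptor subunit, rose from 6.23 ± 0.73 to 13.7 ± 0.37 CPM. CORO2A, an actin-binding coronin, rose from 14.0 ± 0.36 to 31.3 ± 0.65 CPM, and HRC, a calcium-binding protein, from 7.43 ± 0.67 to 16.1 ± 0.88 CPM. LEFTY2, an inhibitor of Nodal, also passed, at 3.74, 9.45 and 4.04 CPM against 13.4, 16.8 and 10.2. Its day 7 replicate 2 came close to day 8, and the call (adjusted p = 0.024) was lost without day 7 replicate 1 (0.14) or 3 (0.12) and without day 8 replicate 1 (0.063) or 2 (0.11). The other genes among the 12 with the largest increase, EGR1, ISL2, RET and SHH, are described with their groups.

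The 12 genes with the largest called decrease ranged from receptors and matrix proteins to a histone methyltransferase, and 9 of them are among the 10% of genes with the longest annotated transcripts. PRTG (chr15:55611546-55743090, minus strand), the early neural tube receptor protogenin, fell from 1072, 946 and 1030 CPM to 398, 392 and 452 CPM. The decrease was by 1.30 ± 0.10 on the log2 scale (adjusted p = 2.9e-10), with the days far apart. RELN (chr7:103471784-103989516, minus strand), the secreted glycoprotein reelin, fell by 1.10 ± 0.11, from 528.2 ± 33.0 to 247.2 ± 18.0 CPM. LIN28A (chr1:26410778-26429722), an RNA-binding protein that blocks let-7 maturation in early cells, fell from 437.3 ± 31.4 to 267.0 ± 13.0 CPM. Of matrix genes, NID2 (nidogen 2, a basement membrane protein) fell from 44.1 ± 2.75 to 23.8 ± 0.42 CPM, ADAMTS5 (a protease that cuts aggrecan) from 10.2 ± 0.79 to 5.37 ± 0.27, and FREM2 from 40.0 ± 4.01 to 23.7 ± 0.58. FREM2 and FRAS1, which fell from 150.0 ± 20.5 to 93.1 ± 7.10 CPM, build 1 complex of the embryonic basement membrane. FAT4, a giant cadherin, fell from 56.1 ± 3.42 to 30.3 ± 2.23 CPM. HES5, the Notch target, MDN1, a ribosome assembly ATPase, KMT2D, a histone methyltransferase, and SYNE2, a nuclear envelope protein, complete the 12.

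**Figure D1:**
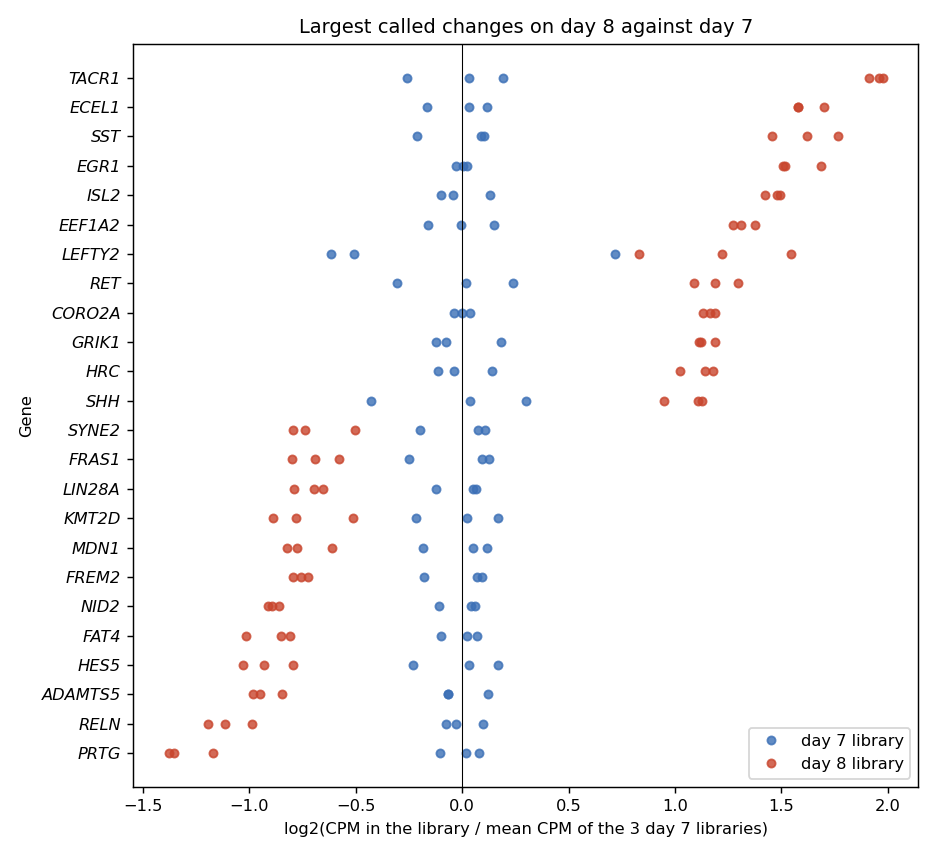
The 12 genes with the largest called increase and the 12 with the largest called decrease on day 8 (vertical axis), with each library's CPM divided by the mean of day 7, on a log2 scale (horizontal axis). Blue points are the 3 libraries of day 7 and red points the 3 of day 8. The day 8 libraries do not overlap those of day 7 in any of the 24 genes, which the choice of the genes required, and day 7 replicate 2 of LEFTY2 lies nearest to the other day.

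The factors that define motor neurons reached their highest mean of all 15 days on day 8, but 1 of the 5 rose from day 7 to day 8 by the test. ISL2 (chr15:76336724-76342476), which marks motor neurons that have just left the cell cycle, stood at 5.66, 5.01 and 4.83 CPM on day 7 and 14.5, 13.8 and 14.4 CPM on day 8. All day 8 libraries were well above all day 7 libraries, and the change was 1.46 ± 0.29 (adjusted p = 0.001). In the fit without replicate 1 of all days, none of the 5 factors was called. ISL1, its close relative, stood at 9.69, 8.85 and 8.65 CPM and then 13.8, 11.8 and 12.2 CPM, and MNX1 (HB9) at 19.4, 16.8 and 18.0 and then 25.8, 21.6 and 24.1. The libraries of the 2 days did not overlap for ISL1 or MNX1. This also held for 31.7% of all genes tested, with day 8 higher for 16.1%. The ISL1 and MNX1 changes of 0.48 ± 0.20 (adjusted p = 0.13) and 0.40 ± 0.23 (0.31) did not pass when the spread was estimated over all days. In a fit of days 7 and 8 alone both passed, ISL1 at an adjusted p of 0.0026 and MNX1 at 0.0034. LHX3 was at 16.1 ± 0.88 and 18.0 ± 1.64 CPM and LHX4 at 80.9 ± 8.05 and 89.5 ± 3.69, with libraries that overlapped. In RNA of a mixed culture, fewer cells of a type and less RNA per cell cannot be told apart.

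The 5 factors differed in what came before and after. From day 6 to day 7, a step in which 3.43% of genes rose, ISL2 rose by 2.36 (adjusted p = 8.2e-05), ISL1 by 1.14 (0.00079) and MNX1 by 1.11 (0.0049). From day 8 to day 9, a step in which 11.0% of genes fell, all 5 had a lower mean, and LHX4 alone passed the test, with a decrease by 0.50 to 63.1 CPM (adjusted p = 0.036). ISL2 was the 1 factor whose step to day 9 differed from its step to day 8, by -1.65 (adjusted p = 0.024), in a test that called 9.06% of genes. The tests between neighbouring days thus separated day 8 from day 7 for ISL2 and from day 9 for LHX4.

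Of 10 genes of acetylcholine transmission tested, 4 rose and none fell, where 5.19% of all genes rose. The median change was 0.60, against 0.0009 over all genes tested. SLC18A3 (chr10:49610301-49612720), which loads acetylcholine into vesicles, went from 14.7, 14.8 and 13.3 CPM to 31.0, 25.3 and 31.2 CPM, a change of 1.03 ± 0.14 (adjusted p = 8.5e-06). CHAT, which makes acetylcholine, went from 1.86, 1.56 and 1.69 CPM to 3.40, 3.27 and 3.66 CPM (1.02 ± 0.20). SLC18A3 lies within CHAT, so reads of the pair may have been shared between them by the counting. ACHE, which breaks acetylcholine down, went from 6.32, 6.59 and 5.87 CPM to 12.8, 12.8 and 12.7 CPM (1.02 ± 0.14, adjusted p = 2e-06). SLC5A7, which takes choline back up, went from 4.15, 3.23 and 5.33 CPM to 7.04, 6.72 and 7.86 CPM (0.78 ± 0.19). Its adjusted p of 0.0077 became 0.08 without day 7 replicate 2. CHRNA4, a nicotinic receptor subunit, was just outside the threshold, at 0.48 ± 0.16 (adjusted p = 0.056). After day 8 the 4 genes parted. SLC18A3 and SLC5A7 rose again, to 38.1 and 11.3 CPM on day 9, while ACHE fell to 7.53 CPM, a difference between its steps of -1.79 (adjusted p = 1.3e-06).

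**Figure D2:**
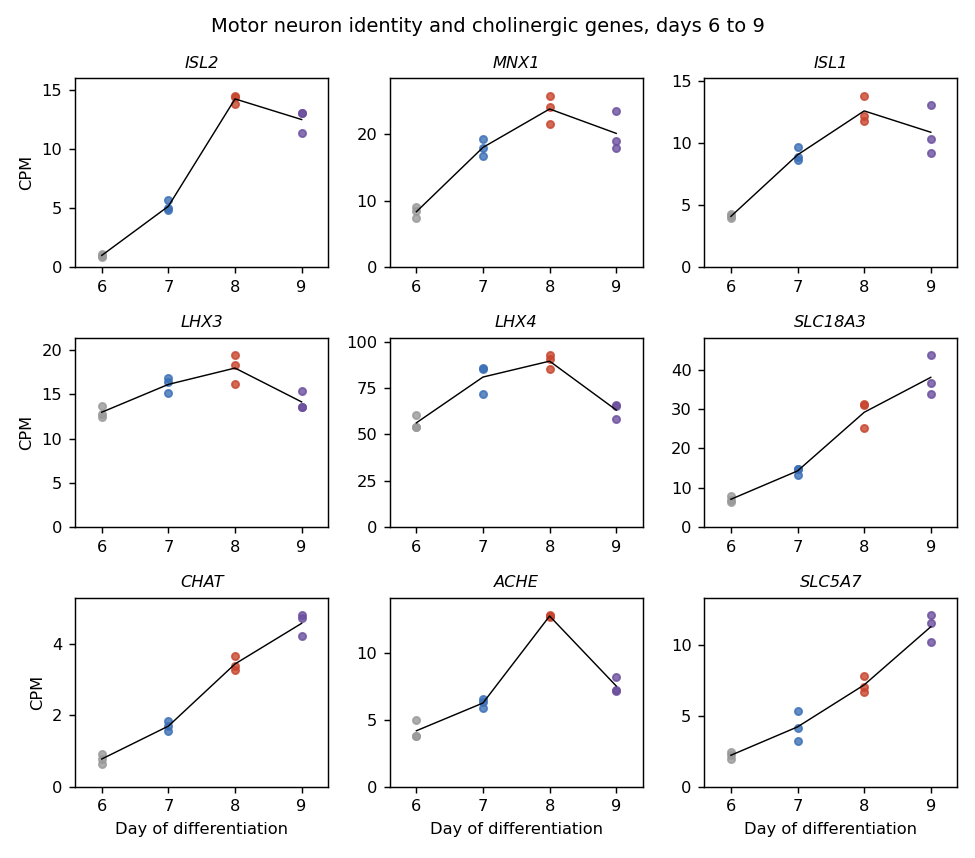
CPM (vertical axes, each from 0) of 5 motor neuron identity factors and 4 acetylcholine genes on days 6 to 9 (horizontal axes). Points are the 3 libraries of a day and lines join the means. The mean of each identity factor is highest on day 8, while SLC18A3, CHAT and SLC5A7 have higher means on day 9 and ACHE a lower one.

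Of 15 genes of the motor axon and of motor neuron survival, 5 rose and none fell, with a median of 0.28. Of all genes tested, 5.19% rose. RET, the receptor through which GDNF keeps motor neurons alive, rose from 5.41, 3.71 and 4.65 CPM to 11.3, 10.4 and 9.77 CPM (1.20 ± 0.23, adjusted p = 0.00067). SLIT3 and SLIT2, secreted guidance cues that motor neurons also make, rose by 0.59 ± 0.12 and 0.52 ± 0.14, and CHL1, an adhesion protein, by 0.41 ± 0.09. SLIT2 was lost without day 7 replicate 1 (adjusted p = 0.07) or 3 (0.082) and without day 8 replicate 1 (0.06). CXCR4, the chemokine receptor that guides motor axons, rose from 91.0 ± 3.67 to 113.2 ± 2.69 CPM. PRPH, the intermediate filament peripherin of motor and sensory neurons, was at 14.2 ± 0.50 and 17.3 ± 0.79 CPM (adjusted p = 0.15). Of 12 factors of motor columns and pools 1 rose, which is near the 5.19% over all genes and is no result about the group. This was ALDH1A2, the retinoic acid-making enzyme of brachial motor neurons, from 0.818, 0.792 and 0.973 CPM to 2.98, 2.29 and 3.47 CPM, and its level reached 17.8 CPM on day 9. FOXP1, which sets the columns that project to the limb, was at 45.3 ± 0.96 and 48.8 ± 1.59 CPM.

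Among 29 pan-neuronal genes, 11 were called higher and 0 lower, with a median of 0.32, where 5.19% of all genes rose. NEFL and NEFM are the light and medium neurofilaments of large axons. NEFL rose from 575, 544 and 576 CPM to 1027, 1051 and 1080 CPM (0.90 ± 0.11) and NEFM from 799.4 ± 91.0 to 1461 ± 96.1 CPM. GAP43, a growth cone protein, rose by 0.72 ± 0.12 and MAPT, the axonal protein tau, by 0.64 ± 0.14. TUBB3, STMN2 and ELAVL4, which mark neurons in general, did not pass, with changes of 0.20 ± 0.09, 0.37 ± 0.17 and 0.32 ± 0.16. The fit of days 7 and 8 alone called 23 of the 29. In each fit without day 7 replicate 2, day 8 replicate 1 or day 8 replicate 3, 7 were called.

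Of 39 genes of synaptic vesicles and the active zone 17 rose and none fell, with a median of 0.31. The shares over all genes were 5.19% higher and 4.58% lower. SYT4, a synaptotagmin of vesicle fusion, rose from 59.6, 52.98 and 64.2 CPM to 96.5, 93.2 and 105 CPM, SYT5 by 0.68 ± 0.15, RAB3A, which tethers vesicles, by 0.60 ± 0.14, and SYN2, a vesicle phosphoprotein, by 0.58 ± 0.14. SNAP25, a protein of the fusion machinery, rose by 0.52 ± 0.13. RAB3A and SNAP25 were lost without day 7 replicate 2, at adjusted p of 0.06 and 0.054. Without that library 7 synaptic genes were called, and without day 8 replicate 3, 10 were. Of 29 transmitter receptor genes 10 rose and none fell, with a median of 0.44, and all 10 were glutamate or glycine receptor subunits. GRIA2 and GRIA3, subunits of AMPA receptors, rose by 1.11 ± 0.21 and 1.00 ± 0.23. GRIN1, the shared subunit of NMDA receptors, rose from 0.772 ± 0.29 to 1.53 ± 0.12 CPM. GRIN1 was lost without day 7 replicate 2 (0.11) or 3 (0.07) and without day 8 replicate 3 (0.056). Without any 1 library of day 7, or without day 8 replicate 1, 6 receptors were called. Of 38 voltage-gated channels 6 rose and 1 fell. SCN9A and SCN3A, sodium channels, rose by 1.21 ± 0.20 and 0.82 ± 0.18.

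Axon guidance genes moved in both directions. Of 44 tested 10 rose and 5 fell, where 5.19% of all genes rose and 4.58% fell. EPHA5, an ephrin receptor, rose from 1.01 ± 0.39 to 2.63 ± 0.37 CPM. CNTN2, the axonal adhesion protein TAG-1, went from 396, 345 and 377 CPM to 777, 712 and 825 CPM and had its highest mean of all days on day 8. SEMA3C, a secreted semaphorin, rose from 102.9 ± 10.1 to 188.6 ± 1.71 CPM, and PLXNA4, a semaphorin receptor, by 0.63 ± 0.15. The 5 that fell, PLXNA2, ROBO3, EPHA4, PLXNC1 and ROBO2, are all receptors and changed by -0.40 to -0.28. Without day 7 replicate 1 or 3, 3 of them were called, and without day 8 replicate 2, 2 were. They lie outside the rule for named genes and were picked with their values known.

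Among transcription factors that mark the order in which spinal neurons are born, 3 of 16 rose and 3 fell. Over all genes tested, 5.19% rose and 4.58% fell. POU2F2 rose from 34.9, 29.8 and 28.96 CPM to 58.6, 55.1 and 58.8 CPM (0.88 ± 0.16) and BCL11A from 1.02 ± 0.21 to 2.74 ± 0.39 CPM. The large zinc finger factors ZFHX3 and ZFHX4 fell by 0.43 ± 0.08 and 0.34 ± 0.08. For both, the step from day 7 to 8 differed from the step from day 6 to 7, by -0.69 (adjusted p = 0.012) and -0.73 (0.0096). Their longest annotated transcripts, of 17219 and 14019 bases, are among the longest tested, which bears on the length pattern given further on.

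Of 5 factors of motor neuron progenitors 1 was called lower, and of 7 Notch targets 2 were. Over all genes tested 4.58% fell, and counts of 1 or 2 in such short lists are no result about the group. OLIG2, which commits progenitors to the motor neuron fate, was at 103, 88.4 and 97.6 CPM on day 7 and 93.9, 88.5 and 98.8 CPM on day 8, with libraries that overlapped. OLIG1, its neighbour, was at 132.0 ± 11.8 and 128.9 ± 10.8 CPM, NKX6-1 at 145.5 ± 9.11 and 163.8 ± 4.65, and NKX6-2 at 11.0 ± 1.28 and 10.2 ± 0.55. None of these 4 passed the test. PAX6, whose level sets where motor neuron progenitors lie, fell from 153.9 ± 9.81 to 134.3 ± 1.09 CPM (adjusted p = 0.023). PAX6 was lost without day 7 replicate 1 or 3 or any 1 library of day 8 (adjusted p of 0.05 to 0.17), and under a correction for transcript length (0.10). SOX2, the general neural progenitor factor, was at 212.0 ± 3.13 and 228.2 ± 5.55 CPM. Of 15 neural progenitor genes 2 fell, ZBTB16 by 0.33 ± 0.07 and HMGA2 by 0.23 ± 0.06, the latter lost without day 7 replicate 3 (adjusted p = 0.062) or day 8 replicate 1 (0.058).

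HES5 (chr1:2528745-2530245, minus strand), the main Notch effector in neural progenitors, went from 84.95, 70.8 and 93.3 CPM to 43.5, 40.7 and 47.9 CPM. It fell by 0.91 ± 0.13 (adjusted p = 2.2e-05) and then stood at 44.8 CPM on day 9. Its step to day 9 differed from its step to day 8 by 0.94 (adjusted p = 0.01). HEYL, a related effector, fell by 0.49 ± 0.16, but its adjusted p of 0.047 became 0.052 with the replicate number as a block and 0.085 to 0.19 without day 7 replicate 1 or 3 or any 1 library of day 8. None of the other 5 Notch targets tested passed. DLL4, a Notch ligand of newborn neurons, fell from 31.7 ± 3.24 to 21.9 ± 1.53 CPM, and NOTCH2, a receptor, from 217.1 ± 19.8 to 168.0 ± 1.14 (adjusted p = 0.0021). JAG2, another ligand, and RFNG, which modifies the receptor, were called higher by 0.37 ± 0.12 and 0.28 ± 0.08. JAG2 was lost without any 1 of the 6 libraries (adjusted p of 0.056 to 0.18), and RFNG without any 1 library of day 7 or day 8 replicate 1 (0.051 to 0.18). DLL1 and DLL3, the ligands of the proneural wave, were at 141.1 ± 13.8 and 115.8 ± 5.55 CPM and at 141.1 ± 3.97 and 146.7 ± 11.1 CPM, and neither passed.

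Of 19 proneural and neurogenic factors 1 was called, a share near the 4.58% of all genes that fell. NEUROG2, which drives motor neuron progenitors out of the cycle, went from 133, 113 and 130 CPM to 92.0, 84.6 and 93.2 CPM, with no overlap. It fell by 0.48 ± 0.11 (adjusted p = 0.0032) and rose again to 119.5 CPM on day 9, a difference between the steps of 0.89 (adjusted p = 0.0023). NEUROD4, which acts after NEUROG2, was at 183.8 ± 8.83 and 158.8 ± 5.71 CPM (adjusted p = 0.43).

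Of 32 genes of S phase tested 16 were called lower, and of 34 genes of G2 and M phase 7 were. The shares over all genes were 4.58% lower and 5.19% higher. All 32 S phase genes had a change below 0, with a median of -0.18. From day 6 to 7, a step in which 2.9% of genes fell, 18 of them had fallen. E2F8, a repressor of E2F targets that is itself made in S phase, went from 6.16, 7.16 and 6.74 CPM to 4.42, 4.57 and 4.81 CPM. CLSPN, a checkpoint mediator at replication forks, fell from 65.9 ± 1.63 to 51.0 ± 0.43 CPM (0.37 ± 0.06, adjusted p = 2.2e-05), and CCNE1, the cyclin of S phase entry, from 19.1 ± 0.34 to 15.7 ± 0.58 CPM. All 34 genes of G2 and M phase had a change below 0 as well. MKI67, the proliferation antigen, went from 768, 722 and 688 CPM to 509, 492 and 542 CPM, and CENPF, a kinetochore protein, from 696, 717 and 650 to 483, 505 and 511. The longest transcripts of MKI67 and CENPF have 12678 and 10307 bases. TOP2A was at 786.6 ± 28.2 and 710.1 ± 43.6 CPM (adjusted p = 0.18). Of 12 CDK inhibitors and D cyclins 2 were called higher, CDKN1C by 0.33 ± 0.09 and CDKN2D by 0.35 ± 0.11, and both were lost without day 7 replicate 2 (adjusted p = 0.058 and 0.14) or day 8 replicate 3 (0.05 and 0.11). CDKN2D was also lost without day 7 replicate 1 (0.077) or day 8 replicate 2 (0.076). Without any 1 library, 8 to 10 S phase genes and 3 to 7 G2 and M phase genes were called. For S phase the numbers were 8, 8 and 9 without day 7 replicate 1, 2 or 3 and 8, 10 and 10 without day 8 replicate 1, 2 or 3. For G2 and M phase 3 were called without day 7 replicate 2, day 8 replicate 1 or day 8 replicate 3.

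E2F factors switch on S phase genes through a short site. The site TTTNGCGC, read on both strands, lies within the 250 bases before the start of 7 of 26 S phase genes with a RefSeq promoter (26.9%), against 1.54% of all 27305 promoters (GRCh38.p14). This share describes the list and is no result about the change on day 8. Of the 7, DTL, MCM6, POLE2 and POLA1 were called lower, while MCM7, CDT1 and E2F1 were not called. Genes without the site, such as CLSPN and CCNE1, were called lower as well. MCM6, a subunit of the replicative helicase, has the most matches. It was chosen here for them, and it fell from 190.6, 188.9 and 204.3 CPM to 171.0, 174.6 and 168.9 CPM (0.18 ± 0.06, adjusted p = 0.036). Its promoter (chr2:135876444-135876693, minus strand) is shown in the direction of the gene with the matched bases in capitals. Each of the 2 runs of capitals holds 1 match on each strand, and these overlap. The matches begin 152, 148, 90 and 86 bases before the start.
MCM6: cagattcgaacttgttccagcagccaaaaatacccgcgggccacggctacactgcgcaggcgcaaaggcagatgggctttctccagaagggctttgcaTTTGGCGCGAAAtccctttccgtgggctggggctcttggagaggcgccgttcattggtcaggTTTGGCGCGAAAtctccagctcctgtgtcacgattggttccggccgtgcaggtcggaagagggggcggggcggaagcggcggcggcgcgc

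Of 9 regulators of developmental timing, most of them RNA-binding, 5 were called lower and none higher, with a median of -0.23. Over all genes tested, 4.58% were lower. LIN28A fell by 0.71 ± 0.06 (adjusted p = 1e-09) and its relative LIN28B by 0.32 ± 0.07. TRIM71, a let-7 target that represses messenger RNAs of early cells, fell from 276.8 ± 4.66 to 190.6 ± 9.25 CPM. IGF2BP1, which stabilises fetal transcripts, fell by 0.29 ± 0.04. HMGA2 is the fifth. LIN28A also fell in both neighbouring steps, by 0.52 from day 6 to 7 and by 0.33 from day 8 to 9.

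HOX genes, which give spinal cells their position along the body, were called in the higher direction only. Of groups 1 to 4, 4 of 12 rose, and of groups 5 to 8, 3 of 11, where 5.19% of all genes rose. HOXC8, a brachial to thoracic gene, went from 2.61, 4.38 and 2.81 CPM to 5.76, 5.84 and 5.12 CPM, and this call was lost without day 7 replicate 1 (adjusted p = 0.12) or 3 (0.084) and without day 8 replicate 1 (0.064) or 2 (0.063). HOXC6 rose from 44.1 ± 2.54 to 65.2 ± 2.97 CPM and HOXA5 from 36.7 ± 2.91 to 47.4 ± 1.87. HOXB9 was at 736.1 ± 23.3 and 754.5 ± 22.3 CPM and rose from day 8 to 9, by 0.60 (adjusted p = 1.6e-10). Many HOX genes overlap in the annotation, so their counts are uncertain. Of groups 1 to 4, 2 were called without day 7 replicate 2 or 3 or day 8 replicate 1, and of groups 5 to 8, 2 without day 7 replicate 1 or 3 or day 8 replicate 1 or 2. Without replicate 1 of all days, no HOX gene of these groups was called.

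Of 11 genes of the floor plate and of the progenitors next to motor neurons 4 rose and none fell. Over all genes, 5.19% rose. The median of the 11 genes was 0.46. Their summed level was 816 to 895 CPM on day 7 and 1046 to 1115 CPM on day 8. FOXA2, the floor plate factor, went from 1.10, 1.25 and 1.08 CPM to 4.03, 3.27 and 2.93 CPM (1.57 ± 0.33, adjusted p = 0.0016). SHH, the Hedgehog ligand of the floor plate and of some motor neurons, went from 5.85, 9.70 and 8.07 CPM to 17.2, 17.0 and 15.2 CPM (1.06 ± 0.27), which became an adjusted p of 0.08 without day 7 replicate 1. NKX2-8 rose from 1.37 ± 0.08 to 3.08 ± 0.23 CPM. The count was 2 of 11 without day 7 replicate 1. NKX2-2, the factor of V3 progenitors, was at 1.28 ± 0.08 and 1.51 ± 0.23 CPM, and SIM1, which defines V3 neurons, had means of 0.05 and 0.08 CPM. Of Hedgehog targets and components, 2 of 11 fell, against 4.58% of all genes, and none rose. SAG was present on both days. GLI3, a repressor, fell by 0.58 ± 0.11 and GAS1, a co-receptor that Hedgehog signalling turns down, by 0.44 ± 0.08. The direct targets GLI1 and PTCH1 were at 25.7 ± 1.52 and 24.2 ± 1.62 CPM and at 438.3 ± 28.1 and 379.6 ± 17.4 CPM, and neither passed.

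Some markers of other cells were called, at levels that ranged widely between the groups. Over all genes tested 5.19% rose and 4.58% fell. The counts of 1 in these short lists are thus no result about a cell type. None of 8 dorsal interneuron factors passed, and their summed level was 4.84 to 4.97 CPM on day 7 and 3.58 to 4.09 CPM on day 8. Of 14 factors of V0 to V2 interneurons SHOX2 was called higher and BHLHE22 lower. Their summed level was 131 to 149 CPM on day 7 and 138 to 140 CPM on day 8. SHOX2 was lost without day 7 replicate 2 (adjusted p = 0.073) or 3 (0.052) and without day 8 replicate 3 (0.059). BHLHE22 was lost without day 7 replicate 1 (0.12) or 3 (0.17) and without day 8 replicate 1 (0.12), 2 (0.061) or 3 (0.14). Of 9 genes that make or load glutamate, GABA or glycine, the transmitters of other neurons, 1 rose, with a median of 0.90, and 8 were under 1 CPM in all 6 libraries. It is SLC17A7, a vesicular glutamate transporter, at 0.283, 0.113 and 0.360 CPM and then 0.805, 0.818 and 0.637 CPM (1.61 ± 0.34, adjusted p = 0.0015). None of 12 neural crest, roof plate and Schwann cell markers passed, with a summed level of 155 to 193 CPM on day 7 and 164 to 189 CPM on day 8 and SOX10 at 0.01 and 0.02 CPM. None of 7 mesoderm and muscle markers, 7 epidermis markers and 11 oligodendrocyte genes passed either. Of 9 endoderm and endothelium markers CXCR4 alone rose. Of 7 markers of pluripotent cells USP44, a deubiquitinase, fell (by 0.35 ± 0.08, adjusted p = 0.0036), and POU5F1 was at 0.02 CPM on both days. Of 21 radial glia and astrocyte genes 1 rose, the glutamate transporter SLC1A2, and 1 fell, PTPRZ1. The summed level was 1731 to 1784 CPM on day 7 and 1684 to 1693 CPM on day 8 for these genes, and 315 to 357 CPM and 332 to 358 CPM for the oligodendrocyte genes. NFIA, which starts gliogenesis, was at 1.47 ± 0.80 and 2.46 ± 0.47 CPM (adjusted p = 0.089). Of 27 collagen, laminin and matrix genes 3 rose, COL6A2 with the largest change (0.57 ± 0.13), and 4 fell, with a summed level of 4158 to 5032 CPM on day 7 and 4377 to 4677 CPM on day 8.

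**Figure D3:**
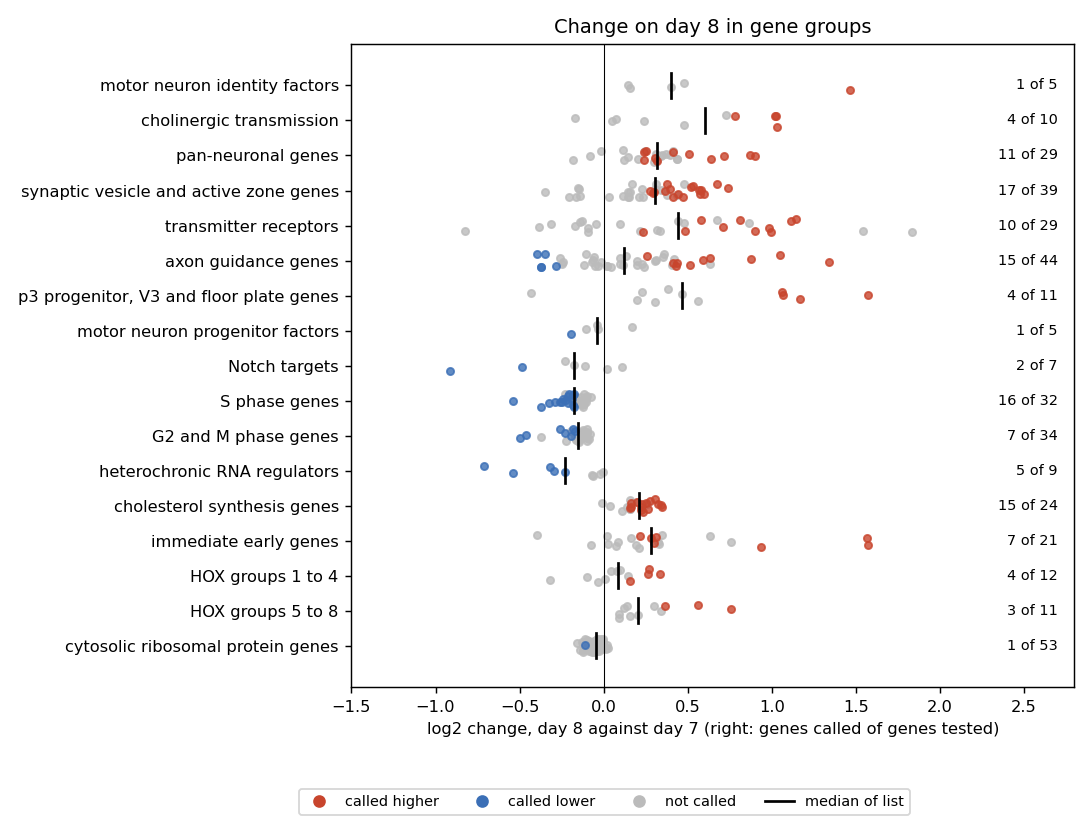
The log2 change on day 8 against day 7 (horizontal axis) of each tested gene in 17 groups (vertical axis), with called genes in red (higher) or blue (lower), others in grey, and a bar at the median of the group. Synaptic, pan-neuronal and cholesterol synthesis genes lie mostly to the right and the S phase and G2 and M phase genes all to the left of 0, while ribosomal protein genes lie close to it.

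Of 24 genes of cholesterol synthesis 15 rose on day 8 and none fell, where 5.19% of all genes rose. The changes were small, with a median of 0.21 and 23 of them above 0. HMGCS1, which makes HMG-CoA, went from 870, 975 and 889 CPM to 1053, 1260 and 1108 CPM (0.32 ± 0.07, adjusted p = 0.0015). LSS, which forms lanosterol, rose from 360.8 ± 1.52 to 456.4 ± 8.09 CPM, MVD, an enzyme of the mevalonate pathway, from 85.3 ± 5.61 to 108.6 ± 4.99, and TM7SF2, a sterol reductase, from 76.4 ± 2.77 to 94.2 ± 5.14. The summed level of the 24 genes was 5950 to 6235 CPM on day 7, 6918 to 7303 on day 8 and 5765 to 6050 on day 9. From day 6 to 7, where 3.43% of all genes rose, 14 of the 24 had risen. From day 8 to 9, where 11% of all genes fell, 15 of the 24 did. For 17 the step to day 9 lay below the step to day 8 by the test, where 5.28% of all genes did. Of 12 fatty acid synthesis genes 6 rose and 1 fell, with 7 of the changes above 0 and ACSS2, which makes acetyl-CoA from acetate, at 51.6 ± 3.10 and 74.2 ± 1.96 CPM and the desaturase FADS2 at 867.0 ± 9.64 and 1027 ± 22.4. From day 6 to 7, 3 of the 12 had risen. SCD, the desaturase that makes oleate, rose by 0.20 ± 0.04. From day 8 to 9, 9 of these 12 fell. Without day 7 replicate 1 or 3, 7 and 8 cholesterol genes were called, and without day 8 replicate 2 or 3, 8 and 9.

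Both groups are classical targets of the sterol-responsive SREBP factors. A share of promoters with their site therefore describes the group and is no result about the change on day 8. The site TCACNCCAC, read on both strands, was found within 250 bases before the start in 1 of 18 cholesterol synthesis genes with a RefSeq promoter (5.56%), against 0.875% of all promoters. The gene is SREBF2, which encodes one of these factors and was chosen for the match. It rose from 574.6, 550.8 and 572.9 CPM to 626.2, 625.5 and 652.9 CPM (0.17 ± 0.05, adjusted p = 0.022). Its promoter (chr22:41832855-41833104, plus strand) is shown with the match in capitals, which begins 133 bases before the start.
SREBF2: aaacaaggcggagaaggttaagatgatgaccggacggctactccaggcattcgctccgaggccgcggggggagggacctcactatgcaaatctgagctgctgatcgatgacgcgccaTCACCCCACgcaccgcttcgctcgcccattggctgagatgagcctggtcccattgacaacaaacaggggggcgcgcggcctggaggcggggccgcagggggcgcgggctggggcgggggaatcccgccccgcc

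Immediate early genes respond within minutes to growth factors, activity or handling. Of 21 tested 7 rose on day 8 and none fell, with a median of 0.28, where 5.19% of all genes rose. From day 8 to day 9, where 11% of all genes fell, 9 of the 21 did. EGR1 (chr5:138465490-138469315), a zinc finger factor, stood at 22.3, 22.0 and 21.5 CPM on day 7, 62.4, 70.6 and 62.6 CPM on day 8 and a mean of 12.5 CPM on day 9. Its rise was 1.57 ± 0.14 (adjusted p = 1e-09), with 3 tight libraries on either side. FOS, the partner of JUN, went from 2.04, 2.04 and 1.98 CPM to 5.76, 6.58 and 5.63 CPM and back to 2.24 CPM. JUND rose by 0.31 ± 0.07, and IER2 and NR4A1, named here in addition to the rule, by 0.22 ± 0.05 and 0.30 ± 0.08. EGR3 (0.93 ± 0.30) was lost without day 7 replicate 1 (adjusted p = 0.17) or 3 (0.17) and without day 8 replicate 1 (0.071), 2 (0.13) or 3 (0.067). JUN is the seventh. For 8 of the 21 the step to day 9 lay below the step to day 8 by the test, where 5.28% of all genes did. DUSP6, a phosphatase induced by ERK signalling, had the same course, at 97.4 ± 2.69, 126.8 ± 2.89 and 74.5 CPM on days 7, 8 and 9. It belongs to a list of 17 FGF-ERK feedback genes, of which 3 rose and 1 fell on day 8, with a median of 0.02. From day 8 to 9, 3 of the 17 rose and 4 fell. Without day 8 replicate 1, 3 immediate early genes were called, and without day 8 replicate 3, 4 were. The labels do not say how long after a medium change the cells were taken, so feeding and day cannot be told apart.

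Serum response factor acts on such genes through the CArG box, here 2 C, 6 A or T and 2 G. It was found within 250 bases before the start in 1 of 15 immediate early genes with a RefSeq promoter (6.67%), against 1.14% of all promoters. That gene is EGR1, with 2 boxes that begin 105 and 83 bases before the start. The share describes the group and is no result about the change on day 8. The EGR1 promoter (chr5:138465229-138465478, plus strand) is shown with both boxes in capitals.
EGR1: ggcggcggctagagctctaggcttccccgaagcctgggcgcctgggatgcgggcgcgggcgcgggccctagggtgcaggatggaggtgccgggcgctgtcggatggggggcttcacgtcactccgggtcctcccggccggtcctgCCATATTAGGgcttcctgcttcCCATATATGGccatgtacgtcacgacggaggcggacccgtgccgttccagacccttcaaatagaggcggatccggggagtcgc

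Of 18 retinoic acid response genes 1 rose from day 7 to 8, which is near the 5.19% over all genes. It is RXRG, a retinoid receptor that had its highest mean of all days on day 8 (12.3 ± 0.81 and 20.1 ± 0.50 CPM). CYP26A1 (chr10:93073475-93077890), which degrades retinoic acid and is induced by it, was at 3.21, 4.30 and 3.28 CPM on day 7 and 2.24, 2.99 and 2.16 CPM on day 8, and then at 22.0 CPM on day 9. CYP26B1, a second such enzyme, was at 0.806 ± 0.33 and 0.537 ± 0.29 CPM and then at 18.3. Their steps to day 9 lay above their steps to day 8 by 3.70 (adjusted p = 9e-06) and 5.69 (0.00069), a direction called for 3.78% of genes.

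**Figure D4:**
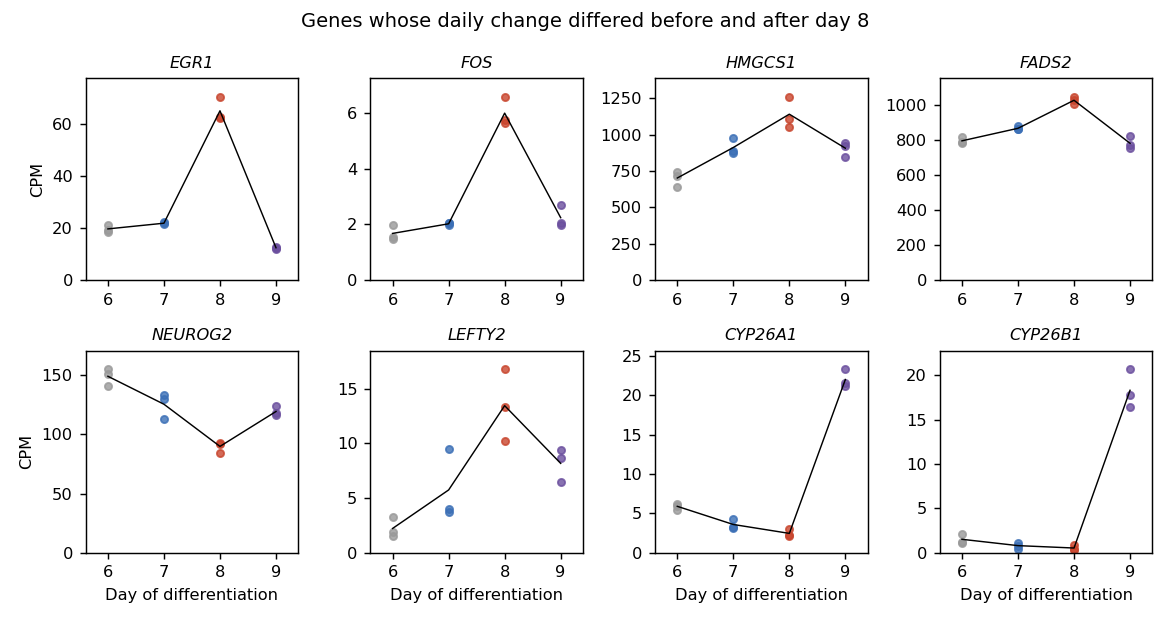
CPM (vertical axes, each from 0) of 8 genes on days 6 to 9 (horizontal axes), with points for the 3 libraries of a day and lines through the means. EGR1, FOS, HMGCS1, FADS2 and LEFTY2 have their highest mean of these days on day 8, NEUROG2 its lowest, and CYP26A1 and CYP26B1 rise after day 8.

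Other signalling and metabolic genes changed one by one. Of 15 Wnt targets 1 rose and 1 fell, with a median of -0.08. The same counts held for 15 BMP and TGF-beta readout genes, with a median of -0.01. They are near the 5.19% higher and 4.58% lower over all genes and are no result about either pathway. WNT4 rose from 8.23 ± 1.52 to 17.1 ± 0.91 CPM and WNT5A fell from 108.0 ± 4.60 to 82.2 ± 0.87 CPM. ID1, a readout of BMP signalling, fell by 0.40 ± 0.09, and CHRD, a BMP antagonist, rose by 0.64 ± 0.12. Of 22 glycolysis genes 5 rose and 2 fell. ENO2, the neuronal enolase, rose from 111.4 ± 9.64 to 163.8 ± 4.05 CPM, while the glucose transporter SLC2A1 fell from 475.8 ± 46.5 to 349.3 ± 13.5 and HK2, the hexokinase of dividing cells, from 40.5 ± 1.76 to 34.4 ± 1.19. GPX3, a secreted peroxidase, went from 9.31, 12.0 and 8.32 CPM to 21.4, 20.1 and 18.5 CPM. None of 14 genes of the unfolded protein response, 17 p53 targets and 34 nuclear respiratory chain genes passed. Of 53 ribosomal protein genes 1 was called, RPS20, at -0.11 ± 0.04, which was lost with the replicate number as a block (adjusted p = 0.055) and without any 1 library (0.059 to 0.21).

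Few genes changed pace between the step to day 7 and the step to day 8. The test of the difference called 51 genes (0.262%), 3 above and 48 below, while 1153 had an unadjusted p under 0.05. The 3 were EGR1 (by 1.42, adjusted p = 0.0067), GPX3 (by 0.83, 0.02) and RGS11, a regulator of G protein signalling that is under 1.2 CPM on both days and lies outside the naming rule (by 3.09, 0.015). Below were MEGF10, which rose in both steps but by 1.28 and then 0.38, and FAT3, UBR4, SYNE2, FRAS1 and KMT2D, which fell on day 8 after a small increase in the mean on day 7. These calls rested on single libraries. Without day 7 replicate 1 no gene was called, without day 7 replicate 2, 2 were, and without day 8 replicate 1 or 2 or day 6 replicate 3, 13, 25 and 17 were. DESeq2 called 102 genes in this test.

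Long transcripts were low on day 8 relative to day 7. Of 10481 genes with at least 10 CPM, the 10% with the longest annotated transcripts (8184 bases or more, GENCODE 29) had a median change of -0.11 from day 7 to 8, and 25.7% of them were called lower. From day 6 to 7 their median was 0.06, and from day 8 to 9 it was 0.02. The mean log2 level of these genes, less that of genes under the median length, was 0.699 to 0.780 in the libraries of day 7 and 0.597 to 0.656 in those of day 8. On day 6 it was 0.631 to 0.677 and on day 9 0.600 to 0.735. Day 7 thus lay above day 6 and day 8 without overlap, but day 9 replicate 1 (0.735) lay within its range. Single libraries of more distant days stood as high, such as day 4 replicate 2 (0.783) and day 15 replicate 3 (0.756). Of the 12 genes with the largest decrease on day 8, 9 were in that longest class, with a median transcript of 13795 bases, and none of the 12 with the largest increase was, with a median of 3381 bases. Of the 48 genes below in the test of pace, 43 were. With a correction for transcript length in the fit, 983 genes were called higher and 866 lower on day 8, and 6 genes were called in the test of pace. Of the 1900 genes called on day 8 without it, 1557 were called again, as were 139 of 145 called genes that the naming rule gives. PRTG, RELN, HES5, LIN28A and MKI67 remained lower, and PAX6 was lost. Whether the length pattern comes from the cells, the RNA or the libraries was not tested.

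**Figure D5:**
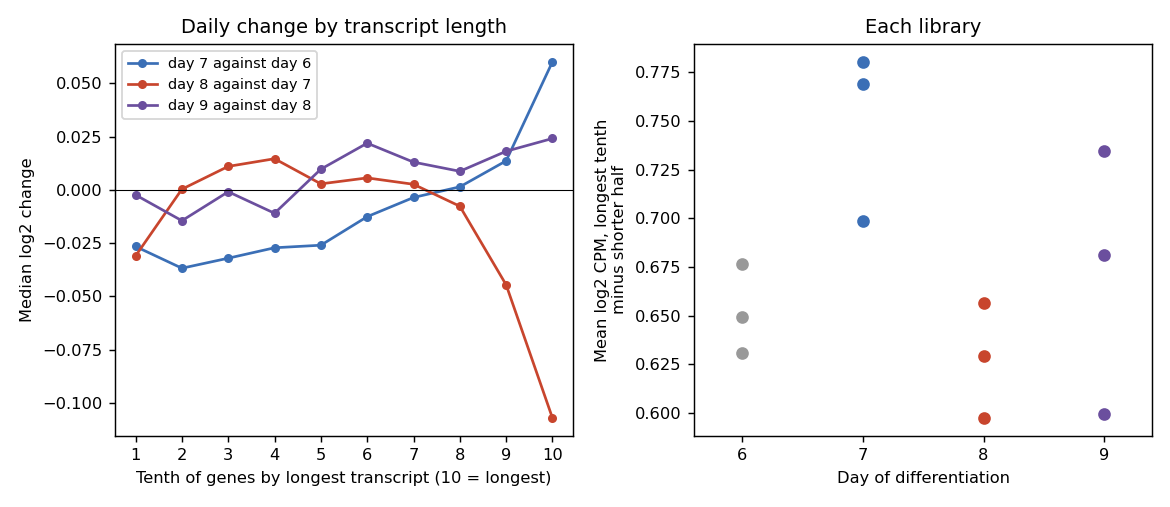
Left, median log2 change (vertical axis) in 10 classes of genes by the length of the longest transcript (horizontal axis, 10 is longest) for 3 daily steps. Right, mean log2 CPM of the longest class less that of genes under the median length (vertical axis) in each library by day (horizontal axis). The longest class falls by 0.11 from day 7 to day 8, and the 3 libraries of day 7, at 0.699 to 0.780, lie above those of day 8.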

How the data were processed

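Polyadenylated RNA was sequenced in 3 libraries on each of 15 days, per the labels' protocols. The authors deposited RSEM expected counts and TPM, a level scaled to transcript length and library, per gene, and RSEM and bcl2fastq 2.20.0 are named in the submitters' processing notes. For aligner, annotation and strand setting, nothing is stated in the labels or files, so reads of overlapping genes (such as LHX4, GRIK1, GRIN1, RAB3A, PAX6 and ALDH1A2 with their neighbours) cannot be told apart. The deposited expected counts (92.5% whole numbers) were rounded. Of 58233 rows, 57895 matched GENCODE 29 (GRCh38), and the other 338 held 0.0276% of counts. Samples were grouped by their day label.

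All 45 libraries were fitted together in edgeR 4.0.16 (R 4.3.3) with day as factor, TMM scaling (factors 0.9247 to 1.061), the filterByExpr filter and robust quasi-likelihood tests (30 residual degrees of freedom), with Benjamini-Hochberg adjustment over 19436 genes. CPM are TMM-scaled. The SE is the size of the log2 change divided by the square root of F. The step to day 8 was also set against the steps to day 7 and day 9 as differences of contrasts. Same-numbered libraries of days 7 and 8 deviated together (r of 0.18, 0.45 and 0.25 over 10486 genes). The numbers were therefore taken to pair these days, and a fit with the replicate number as a block was run beside the main fit. Between days 6 and 7 r was 0.41, -0.10 and -0.40, and between days 8 and 9 it was -0.30, -0.13 and 0.07. The numbers thus did not pair all days alike, while the block gives each number 1 shift over all days. Alternatives were DESeq2 1.42.0 and its size factors, no filter, limma 3.58.1 on log2(TPM + 1) of the deposited TPM, fewer days, left-out libraries and, chosen after seeing the data, a correction for transcript length.

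Named genes were, by rule, the 12 called protein-coding genes with the largest change in each direction (at least 10 CPM, days not overlapping), up to 4 called members of each of 58 lists, 38 preset genes, all members of lists of at most 5, and the 6 largest in each direction in the tests between steps. MCM6, SREBF2, IER2, NR4A1, CHRNA4, JUN and the summed or level-only markers were added after their values were seen. Members and lists were chosen with earlier results of these data known, so a list is given as counts and a median, without a test. Some called list members are not reported here. Promoters are RefSeq sequences on GRCh38.p14.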

Additional observations from a re-analysis of the deposited data

Results flagged for a closer look

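The change from day 7 to day 8 differed by the test from the change in the step before it for 51 genes, and from the change in the step after it for 1761 genes. Both tests share libraries with the comparison of days 7 and 8. Against the step before, EGR1 stood higher by 1.42 on the log2 scale and GPX3 by 0.83. MEGF10 (-0.89), FAT3 (-0.89), UBR4 (-0.80), SYNE2 (-0.83), FRAS1 (-0.80) and KMT2D (-0.87) stood lower. Except for MEGF10, whose longest transcript has 7594 bases, the genes that stood lower have transcripts of 15624 (FRAS1) to 21842 bases (SYNE2).

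In the step after, EGR1 (-3.96), FABP3, a fatty acid-binding protein (-2.14), TACR1 (-1.997), LEFTY2 (-1.93), ELN, the matrix protein elastin (-1.85), and ACHE (-1.79) had the lowest values among genes of at least 10 CPM. ELN did not pass between days 7 and 8 (adjusted p = 0.13). The highest values were those of the retinoic acid-degrading enzymes CYP26B1 (5.69) and CYP26A1 (3.70), then ADAMTS9, a matrix protease (1.71), UBD, a ubiquitin-like protein (1.60), CLK1, a splicing kinase (1.55), and GUCY1A2, a guanylate cyclase subunit (1.33). These values are differences between steps, so a low value can follow from a rise before day 8, as for TACR1, which was at 10.6 CPM on day 8 and 10.2 on day 9.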

How the results depend on the processing

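All values here count called genes, and the cause of a difference was not tested unless fewer libraries or genes entered. Against 1009 higher and 891 lower genes, leaving out replicate 1, 2 or 3 of all days, or 1 library, gave 117 to 779 higher and 94 to 612 lower. Leaving out replicate 1 of all days ended all HOX calls and all 17 synaptic, 5 motor axon and 4 floor plate calls. It took pan-neuronal calls from 11 to 2, S phase calls from 16 to 2 and cholesterol synthesis calls from 15 to 3. Acetylcholine genes went from 4 to 3 and regulators of developmental timing from 5 to 3. Fits of days 7 and 8 alone and of days 0 to 9 gave 1581 and 1573 higher. Lower genes numbered 535 without a filter on low counts and 292 with limma on TPM. At least 2-fold changes numbered 122 and 25. The replicate block gave 1040 higher and 907 lower and, of the calls led with above, it ended HEYL and RPS20.

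The 51 genes that differed from the step to day 7 became 102 with DESeq2, 2 with limma on TPM, 6 with the length correction and 8 with that and the replicate block. Leaving out libraries gave 0 to 70, where 0 came with replicate 1 or 2 of all days, or day 7 replicate 1, left out. The 1761 genes of the step to day 9 became 891 with limma on TPM, 2824 with the days in the contrast alone and 2672 with days 0 to 9, and left-out libraries gave 136 to 1821. Of 16 motor neuron markers 5 were called, 11 with days 7 and 8 alone, 10 with days 0 to 9 and 3 to 5 with libraries left out.

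Among 145 called genes that the naming rule gives, none changed direction, 108 stayed called without any 1 library and 99 under every other setting. OLIG1 and OLIG2, not called, changed sign. OLIG1 was at 0.0343 with limma on TPM, and at -0.1074 (without day 7 replicate 2) to 0.0337 (without day 8 replicate 2) with libraries left out. OLIG2 was at -0.0965 (without day 7 replicate 2) to 0.0110 (without replicate 1). Genes near or below 1 CPM rest on fewer counts than genes at higher levels, so their changes are less certain.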
